A study of Mus musculus with 15 samples.

Results

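The nuclear receptors for vitamin A acids are encoded by 6 genes in the mouse: Rara, Rarb and Rarg for the retinoic acid receptors (RAR) alpha, beta and gamma, and Rxra, Rxrb and Rxrg for the retinoid X receptors (RXR) alpha, beta and gamma. They were taken by symbol from a table of read counts for 43432 gene identifiers, and 6 of 6 had a row. The libraries came from 266-6 cells, a mouse pancreatic acinar tumour line that keeps part of the digestive enzyme programme. Cells were grown with serum, kept for 24 h in stripped medium and exposed to a ligand for the next 24 h. The 15 libraries form 5 groups of 3: the vehicle DMSO, AM580, CD3254, AM580 with CD3254 (called the joint treatment), and 9-cis retinoic acid. All groups shared the cell line and both incubations. The labels name no genetic change and give neither ligand concentrations nor whether replicates were separate cultures. The p-values therefore cover the variation among these libraries only, and that variation may be technical. The series' title names the question, allosteric effects within liganded heterodimers of RAR alpha and RXR.

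RAR proteins bind DNA as heterodimers with an RXR. Without ligand the pair holds corepressors at target genes, and an RAR agonist exchanges them for coactivators. The classical response element is a direct repeat of a hexamer with a short spacer, and Rarb is a textbook target gene that carries one near its start. AM580 is a synthetic agonist with preference for RAR alpha, CD3254 is a synthetic RXR agonist, and 9-cis retinoic acid activates both families. RXR also pairs with other nuclear receptors, which is why its agonists can act without an RAR ligand. In the pancreas, retinoic acid is best known for its part in early development of the organ.

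The repeat that defines such an element was looked for in the start regions of all 6 genes, since a ligand response of a receptor gene is where it would bear on the data. RefSeq windows of GRCm38.p6, from 250 bases before to 50 bases after each annotated start, were searched on both strands for 2 half-sites in the same direction, each of them with the letters AGGTCA, with AGTTCA, with GGGTCA or with GGTTCA, separated by 5 bases (DR5). Of 13 windows of the receptor genes, 1 held a DR5, and it belonged to Rarb. The share over all 32851 windows was 0.0974%, or 32 windows. Among 16 genes of retinoic acid supply, binding and breakdown, 11 had a window and 1 held a DR5, Cyp26a1, a retinoic acid hydroxylase shown for comparison. Below, half-sites are in capitals and the flanks in lower case. The Rara and Rarg lines are the closest pairs at the same spacing in the other RAR genes. Rara, Rarg, Rxra and Rxrb were not called in any comparison below, and the Rxra and Rxrb pairs are given by score only. Cyp26b1 and Dhrs3 of that list, called below, had no DR5 found, and whether each had a window is not given here. A link between the repeat and a change in level was not tested.

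Rarb, chr14:16575507-16575535, minus strand: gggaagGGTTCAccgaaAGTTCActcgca

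Cyp26a1, chr19:37697770-37697798, minus strand: caaattAGTTCAcccaaAGTTCAtcttta

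Rara, chr11:98939583-98939611, minus strand: ggcagcAGGTGCattcaGGGTCAgatgag

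Rarg, chr15:102257725-102257753, plus strand: ccgggcAGAGCTggcagAGGTCAgtgtcc

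The Rarb pair matched 12 of 12 half-site letters and lay from 53 to 37 bases before the RefSeq start. The Rara pair matched 10 of 12 letters, a score that 18.8% of all windows reached. The Rarg pair matched 9 of 12, which 76.8% of windows reached. The closest pairs of Rxra, Rxrb and Rxrg matched 10, 8 and 9 letters. Repeats with a spacer of 1 or 2 bases, DR1 and DR2, were found in 0 of the 13 receptor windows, against 0.222% and 0.268% of all windows. A single half-site was in 7 of 13 receptor windows and in 43.7% of all windows. These are matches of letters in a short window and say nothing of binding.

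Levels are gene reads scaled to a common library total (CPM), with TMM factors. Gene reads per library ran from 28501170 to 46801058 in 14 libraries, and replicate 3 of 9-cis retinoic acid had 14600962. Of 15 acinar markers, 13 reached 1 CPM in at least 1 library, with Ctrb1, a chymotrypsinogen, at 3841 to 7201 CPM. The amylase gene Amy2a5, at 0 to 1.07 CPM, counts among the 13 although its median was 0. By the same rule, 4 of 6 ductal markers and 2 of 7 endocrine markers reached 1 CPM. So did 6 of 7 stellate and fibroblast markers and 1 of 6 immune and endothelial markers. The hormone genes Ins1 and Ins2 were at or near 0. The first principal component of the counts, with 48.3% of the variance, parted 5 libraries from the other 10, 1 from each treatment. These were replicate 1 of DMSO, AM580, CD3254 and 9-cis retinoic acid and replicate 2 of the joint treatment. The summed level of 12 genes known to rise in low oxygen was 6922 to 10093 CPM in these 5 libraries and 1166 to 1728 CPM in the other 10. They are called the 5-library set and the 10-library set, were defined on these counts and not by the labels, and are given beside each result.

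The receptor genes stood in the same order in all 5 treatments. Scaled to merged exon length, Rxrb was highest at 27.5 ± 3.70 CPM per kb (SD, n = 15), followed by Rxra at 14.5 ± 2.64, Rarg at 8.01 ± 3.44, Rara at 4.57 ± 1.89 and Rarb at 0.325 ± 0.247 CPM per kb. Rxrg was last at 0.0131 CPM per kb. In paired exact permutation tests over the 15 libraries, two-sided on log2 CPM per kb, each neighbour in this order differed beyond its spread. The order was read from the means of the same 15 libraries, which mix 5 treatments. The p-values therefore do not test an order set in advance. Rxrb exceeded Rxra by 1.91-fold in 15 of 15 libraries, Rarg exceeded Rara by 1.75-fold in 15 of 15, and Rara exceeded Rarb by 18.7-fold in 15 of 15, each with the smallest p that 15 pairs allow (exact p = 6.1e-05). Rxra exceeded Rarg by 1.92-fold in 12 of 15 (exact p = 0.000854). The 18.7-fold is a mean over states that differ: the ratio of Rara to Rarb per length was 46.4 to 149 in the 6 libraries without an RAR ligand and 4.18 to 33.2 in the 9 with one. The pair of Rxra and Rarg depended on the library set: Rxra was above Rarg in 10 of 10 libraries of the 10-library set and in 2 of 5 of the other set.

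**Figure D1:**
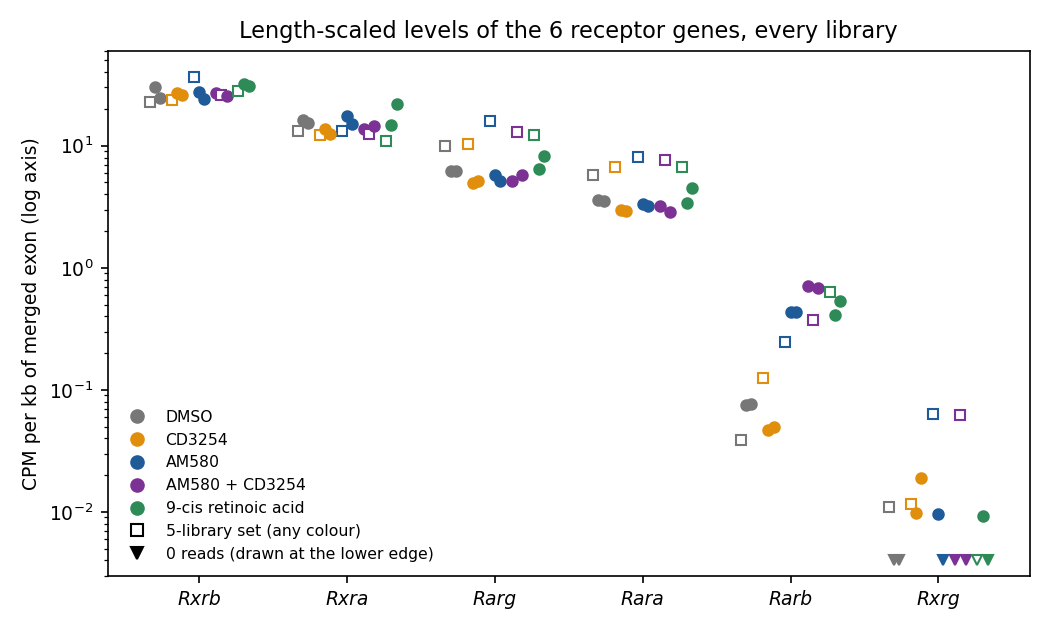
Length-scaled level of each receptor gene in every library, as CPM per kb of merged exon on a log axis, with colours for the 5 treatments, open squares for the 5-library set and triangles for libraries with 0 reads. Rxrb and Rxra sit highest, Rarb spans the libraries from 0.0385 to 0.704 CPM per kb, and Rxrg lies near or at 0.

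Rxrg, the isotype best known from muscle and brain, was barely sampled. It had 16 reads in all 15 libraries together, 0 reads in 7 libraries, and at most 5 in a library. Only replicate 1 of AM580 (5 reads, 0.147 CPM) and replicate 2 of the joint treatment (4 reads) exceeded 3 reads, the limit that a count of 0 allows, which was 0.0639 to 0.257 CPM depending on the library. Both belong to the 5-library set. The gene did not pass the filter on low counts, so 5 of 6 receptor genes entered the test across genes, and no fold change is given for it. Such limits cover counting error only.

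Rarb, the receptor gene with the least reads among the 5 tested, was higher in every library with an RAR ligand than in every library without one. In DMSO its 3 libraries held 0.203, 0.393 and 0.402 CPM, from 8, 13 and 16 reads. With CD3254 they held 0.663, 0.246 and 0.260 CPM, from 25, 11 and 12 reads. Of the CD3254 libraries, 1 lay above the DMSO values and 2 lay within their range.

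AM580 gave 1.29, 2.29 and 2.30 CPM, from 44, 104 and 107 reads. The joint treatment gave 3.71, 1.97 and 3.62 CPM, from 128, 55 and 145 reads. With 9-cis retinoic acid the values were 3.33, 2.15 and 2.82 CPM, from 123, 101 and 33 reads. All 9 of these libraries exceeded the highest of the 6 others, 0.663 CPM, and the 3 ligand treatments overlapped each other. Counting error alone was wide at these depths. The 95% Poisson interval was 0.0875 to 0.399 CPM for replicate 1 of DMSO and 0.429 to 0.979 CPM for replicate 1 of CD3254. For replicate 1 of AM580, the lowest library with an RAR ligand, it was 0.938 to 1.73 CPM, which overlaps that of replicate 1 of CD3254.

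**Figure D2:**
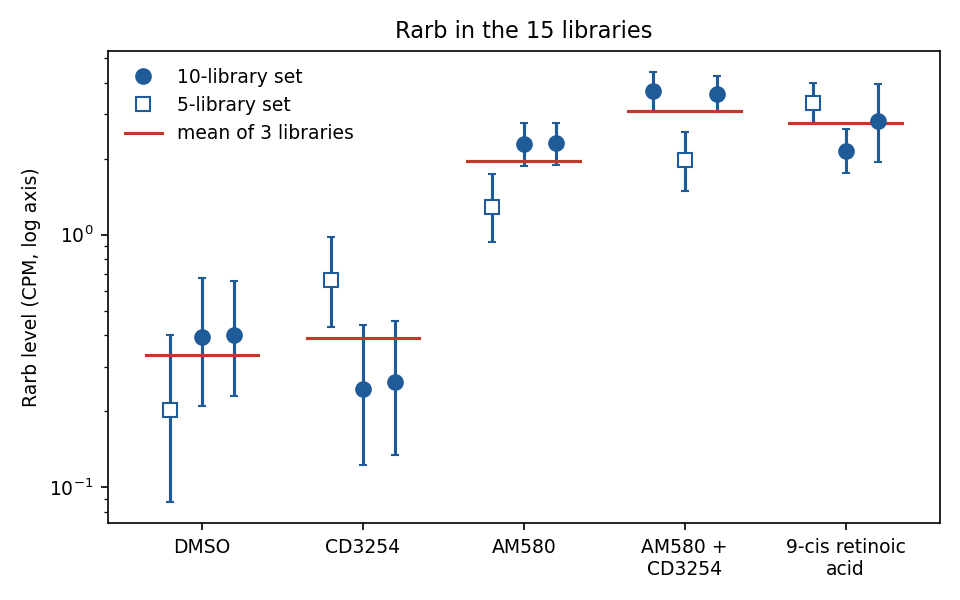
Rarb level in CPM on a log axis for each of the 15 libraries by treatment, with 95% Poisson intervals, which cover counting error only, and the mean of 3 libraries as a red line. The 9 libraries with AM580, the joint treatment or 9-cis retinoic acid sit between 1.29 and 3.71 CPM, above the 6 libraries without an RAR ligand at 0.203 to 0.663 CPM.

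Pooled over treatments, Rarb averaged 2.61 ± 0.817 CPM (SD, n = 9) with an RAR ligand and 0.361 ± 0.169 CPM (n = 6) without. The difference was 2.56 in log2(CPM + 0.1), with an exact permutation p of 0.0002, two-sided, the smallest that 5005 assignments can give. In edgeR's quasi-likelihood test over all 16736 genes, Rarb rose 7.11-fold (log2 2.83 ± 0.32 SE, adjusted p = 0.00548). It was 1 of 5 receptor genes called, against 0.0359% of all genes tested. With the library set as a term in the model, the change was again 2.83 ± 0.30 with an adjusted p of 0.00063, against a background of 0.0896%. The call held with each of the 15 libraries left out in turn, at adjusted p-values from 0.00483 to 0.0437 without the term and from 9.05e-05 to 0.00568 with it.

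The rise was present in both library sets. In the 10-library set, Rarb was at 0.325 ± 0.0838 CPM (n = 4) without an RAR ligand and at 2.82 ± 0.696 CPM (n = 6) with one. In the 5-library set, the 2 libraries without and the 3 with an RAR ligand spanned 0.203 to 0.663 and 1.29 to 3.33 CPM.

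Against DMSO one treatment at a time, the fitted Rarb changes were positive for all 3 treatments with an RAR ligand, and whether they were called depended on the model. The fitted log2 change was 2.55 ± 0.47 with AM580 (95% interval 1.53 to 3.58), 3.21 ± 0.48 with the joint treatment (2.17 to 4.26) and 3.05 ± 0.48 with 9-cis retinoic acid. The edgeR adjusted p-values were 0.473, 0.0566 and 0.199, so 0 of 5 receptor genes were called, where 0%, 0.0179% and 0% of all genes passed. With a threshold of 0.05 on the unadjusted p the count was 1, Rarb, in each of the 3, and DESeq2 called 1, Rarb, in each. Here and below, backgrounds are the shares of genes called by edgeR's adjusted p over all libraries. Counts by unadjusted p or by DESeq2 have no such share beside them, so how unusual they are is not given. Groups of 3 against 3 cannot reach an exact permutation p below 0.10, and each of these comparisons was at that limit.

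With the library set term, edgeR called Rarb in the joint treatment (3.21 ± 0.45, adjusted p = 0.00679, background 0.125%) and with 9-cis retinoic acid (3.07 ± 0.45, adjusted p = 0.0296, background 0.0299%). AM580 alone had 2.56 ± 0.44 and an adjusted p of 0.105, with 0.0299% of genes called. The joint call was lost without replicate 1 or replicate 3 of DMSO, at adjusted p-values up to 0.0721. The 9-cis retinoic acid call held in 6 of 15 such fits, at adjusted p-values up to 0.309.

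CD3254 alone had a Rarb log2 change of 0.22 ± 0.47 (95% interval -0.81 to 1.24), with 0 of 5 receptor genes called by edgeR, 0 by unadjusted p-values below 0.05, 0 by DESeq2, and a background of 0%, or 0.0239% with the library set term. The 2 library sets went opposite ways: the ratio of CD3254 to DMSO was 0.636 in the 10-library set and 3.27 between the single libraries of the 5-library set. The interval admits both a fall and a rise of more than 1.5-fold.

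Over all 15 libraries, the 3 treatments with an RAR ligand were not separated from each other for Rarb. The joint treatment minus AM580 was 0.66 ± 0.43 on the log2 scale (95% interval -0.28 to 1.59), 9-cis retinoic acid minus AM580 was 0.49 ± 0.44 (-0.45 to 1.43), and 9-cis retinoic acid minus the joint treatment was -0.17 ± 0.43 (-1.10 to 0.77). Each adjusted p was 1.00 in edgeR. For these 3 pairs over all libraries, 0 of 5 receptor genes were called by edgeR, 0 by unadjusted p-values below 0.05 and 0 by DESeq2. The backgrounds were 0%, and 0.012%, 0% and 0.00598% with the library set term. In the 10-library set alone, with 2 libraries a group, edgeR called 0 of 5 in each pair, and 1 of 5 had an unadjusted p below 0.05. Rarb was there 0.67 for the joint treatment minus AM580 (edgeR unadjusted p = 0.0259, adjusted p = 0.99999). It was -0.58 for 9-cis retinoic acid minus the joint treatment (unadjusted p = 0.0526). The ratio of joint treatment to AM580 was 1.59 in the 10-library set and 1.53 in the 5-library set, whereas 9-cis retinoic acid to joint treatment was 0.679 in one and 1.69 in the other.

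The interaction, the AM580 effect in the presence of CD3254 minus the AM580 effect alone, was 0.44 ± 0.65 for Rarb (95% interval -0.96 to 1.84). No receptor gene passed it: 0 of 5 by edgeR, 0 by unadjusted p-values below 0.05 and 0 by DESeq2, with a background of 0%. In the 10-library set alone, with 2 libraries a group, it was 1.32 with an unadjusted p of 0.0113 and an adjusted p of 0.9997 in edgeR. With each of all 15 libraries left out in turn and the library set term in the model, it ran from 0.13 to 1.19. The interval over all libraries includes joint effects on Rarb below and above the sum of the single log2 effects. Of the comparisons with CD3254 as the baseline, Rarb was called by edgeR with the library set term in the joint treatment (2.98 ± 0.44, adjusted p = 0.0310, background 0.0299%) and in 9-cis retinoic acid (2.84 ± 0.44, adjusted p = 0.04999, background 0.0299%). AM580 minus CD3254 was 2.32 ± 0.44 with an adjusted p of 0.424 and a background of 0.012%. Without the term these 3 comparisons called 0 of 5, with a background of 0%, and unadjusted p-values below 0.05 were found for 1 of 5, Rarb, while DESeq2 called 1. The calls with the term held in 5 of 15 and 2 of 15 fits with a library left out. The Rarb ratios to CD3254 differed between the library sets: 14.5 in the 10-library set and 2.97 in the 5-library set for the joint treatment, 9.09 and 1.95 for AM580, and 9.84 and 5.03 for 9-cis retinoic acid. The 5-library set gives these ratios from single libraries, without a test.

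**Figure D3:**
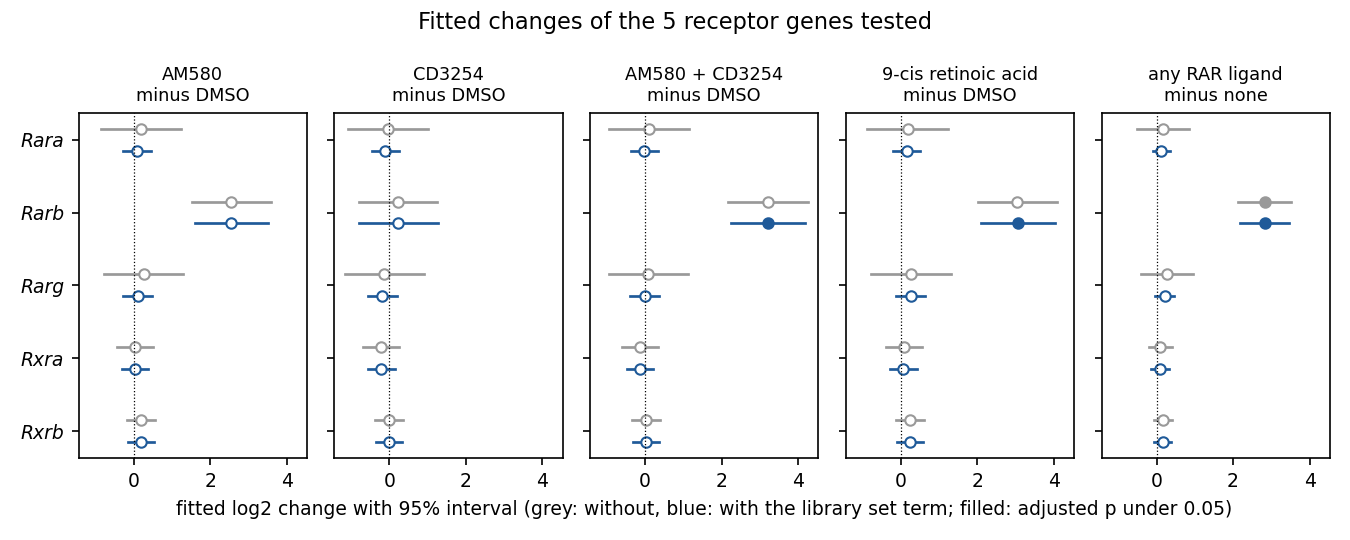
Fitted log2 change and 95% interval for the 5 receptor genes tested in each comparison with DMSO and in the pooled comparison, without the library set term in grey and with it in blue, filled where the adjusted p was under 0.05. Rarb lies between 2.55 and 3.21 in the 3 comparisons with an RAR ligand and at 2.83 pooled, while the intervals of Rara, Rarg, Rxra and Rxrb all include 0.

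Rarb lies at chr14:16430839-16819156 on the minus strand (GRCm38, GENCODE M21), and 1793 of its 5265 merged exon bases, or 34.1%, are also exon of Top2b on the opposite strand. Top2b, a DNA topoisomerase, was far more abundant, at 48.8 to 295 CPM with an RAR ligand and 155 to 264 CPM without, overlapping ranges. Whether the counting used strand is not known here, and reads in the shared stretch cannot be assigned with certainty. The part of such reads in the Rarb values was not tested.

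Rarb stayed a minor part of the RAR transcripts, counted per length. Its share was 0.593 ± 0.301% in DMSO, 0.642 ± 0.0782% with CD3254, 3.52 ± 2.18% with AM580, 5.66 ± 3.36% with the joint treatment and 3.76 ± 0.436% with 9-cis retinoic acid (SD, n = 3). Over the 9 libraries with an RAR ligand it ran from 1.01 to 7.82%, and over the 6 others from 0.245 to 0.781%. In the 10-library set the share with an RAR ligand was 5.46 ± 1.70% (n = 6), and in the 5-library set it was 2.02 ± 1.14% (n = 3). The pooled difference of 3.70 percentage points had an exact permutation p of 0.0016. With the bases shared with other genes left out of the lengths, a setting added after the data were seen, the mean share was 6.77 ± 3.47% with and 0.997 ± 0.32% without an RAR ligand.

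The share of Rara fell by 2.57 percentage points (exact permutation p = 0.00779), and that of Rarg differed by -1.13 points (exact permutation p = 0.344). Shares add up to 100%, so a larger Rarb share lowers the sum of the other 2 by construction, which does not fix how the fall divides between them. A total of 7 shares were compared in this way, and the p-values are unadjusted. The RAR share of all 6 receptor transcripts differed by 1.23 points (exact permutation p = 0.618).

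Rara, at chr11:98927818-98974942 on the plus strand, encodes the receptor that AM580 prefers. It held 25.1, 15.7 and 15.5 CPM in DMSO and 35.6, 14.6 and 14.04 CPM with AM580. The joint treatment gave 13.9, 33.5 and 12.6 CPM, and CD3254 gave 29.5, 12.9 and 12.8 CPM. For 9-cis retinoic acid the values were 29.1, 14.8 and 19.5 CPM, the last in the library with the fewest reads. In every treatment the library of the 5-library set was the highest, and the treatments overlapped. The pooled log2 difference between libraries with and without an RAR ligand was 0.17 (95% interval -0.51 to 0.84), and 0.13 (-0.10 to 0.36) with the library set term.

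Rarg, at chr15:102234938-102257517 on the minus strand, gave the largest part of the RAR transcripts, 61.8 ± 2.14% per length (SD, n = 15), with Rara at 35.4 ± 2.04%. DMSO gave 42.2, 26.6 and 26.3 CPM, AM580 67.7, 24.4 and 22.0 CPM, and CD3254 44.1, 21.1 and 21.9 CPM. The joint treatment gave 21.8, 54.8 and 24.5 CPM, and 9-cis retinoic acid 51.7, 27.4 and 35.3 CPM. Again the 5-library set was highest in each treatment. The pooled log2 difference was 0.27 (-0.40 to 0.94), or 0.21 (-0.03 to 0.46) with the term. With the term, the one comparison in which the unadjusted p of Rarg was below 0.05 was 9-cis retinoic acid minus CD3254, 0.44 ± 0.18, with an edgeR adjusted p of 0.881.

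Rara and Rarg kept a near-constant ratio while both levels moved with the library set. The ratio of Rarg to Rara per length was 1.75 ± 0.133 (SD, n = 15), from 1.53 to 2.00. Rara was at 30.6 ± 4.11 CPM in the 5-library set and 14.6 ± 2.03 CPM in the 10-library set, with ranges of 25.1 to 35.6 and 12.6 to 19.5 that did not overlap. Rarg was at 52.1 ± 10.2 and 25.1 ± 4.24 CPM, again without overlap. The sets were read from the same counts, so no test between them is given. The correlation of Rara with Rarg over the 15 libraries was 0.981 (Pearson, log2 CPM) and 0.889 after the set means were subtracted, as a description of libraries that share treatments and scaling factors. Summed markers of other cell types moved with the same sets without overlap: 66.8 to 90.0 CPM in the 5-library set against 181 to 226 CPM for the endocrine list, 34.1 to 45.8 against 52.4 to 85.5 CPM for the ductal list, and 10.2 to 24.7 against 4.81 to 8.57 CPM for the immune and endothelial list. The acinar and stellate sums overlapped. The part of these markers, or of the low-oxygen genes, in the Rara and Rarg levels was not tested.

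Rxra, at chr2:27676440-27762957 on the plus strand, encodes a common RXR partner of the RARs in epithelial cells. It held 71.6, 88.6 and 84.1 CPM in DMSO, 72.1, 95.4 and 82.0 with AM580, and 66.9, 75.4 and 67.9 with CD3254. The joint treatment gave 75.5, 68.0 and 79.3 CPM, and 9-cis retinoic acid 59.5, 80.8 and 119 CPM, the last in the library with the fewest reads. The treatments overlapped, and unlike Rara and Rarg the 5-library set held the lowest library of each treatment. The pooled log2 difference was 0.10 (-0.20 to 0.40), or 0.09 (-0.13 to 0.32) with the term.

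Rxrb, at chr17:34031812-34038399 on the plus strand, was the most abundant receptor gene. It held 90.4, 120 and 97.0 CPM in DMSO, 147, 110 and 96.8 with AM580, and 93.5, 108 and 103 with CD3254. The joint treatment gave 107, 103 and 102 CPM, and 9-cis retinoic acid 112, 126 and 122 CPM. Only replicate 1 of AM580 stood above 126 CPM, and the library sets overlapped at 90.4 to 147 and 96.8 to 126 CPM. The 9-cis retinoic acid libraries did not overlap those of the joint treatment or of CD3254, at 1.156 and 1.183 times their means, each with an exact permutation p of 0.10, the limit for 3 against 3. The pooled log2 difference was 0.16 (-0.08 to 0.39), or 0.16 (-0.06 to 0.38) with the term. The narrowest intervals among the receptor genes were thus those of Rxrb, and they leave room for a rise of up to 0.39 on the log2 scale.

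Across 12 comparisons and 38 settings, Rara, Rarg, Rxra and Rxrb were called in 0 of 1824 tests, and the smallest adjusted p was 0.390. The settings refit the same libraries, so these tests are not independent. Of all genes, edgeR called 0% to 0.125% per comparison over all libraries, with or without the library set term. A count of 0 is near that share. Their pooled exact permutation p-values on log2(CPM + 0.1) were 0.654 for Rara, 0.503 for Rarg, 0.550 for Rxra and 0.113 for Rxrb. These are limits of what 15 libraries could show, and the intervals above give the sizes that remain possible.

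The balance of the 2 families followed the library set. RAR transcripts made up 32.8 ± 1.74% of all receptor transcripts per length in the 5-library set (30.4 to 35.3%) and 18.2 ± 1.15% in the 10-library set (16.3 to 20.2%). The RXR to RAR ratio was 2.06 ± 0.162 and 4.52 ± 0.347. The treatments, by contrast, had mean RAR shares between 22.1% with CD3254 and 24.1% with the joint treatment, each with an SD of at least 6.88 points. In bulk RNA, a change in the number of cells of a kind and a change in RNA per cell cannot be told apart.

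**Figure D4:**
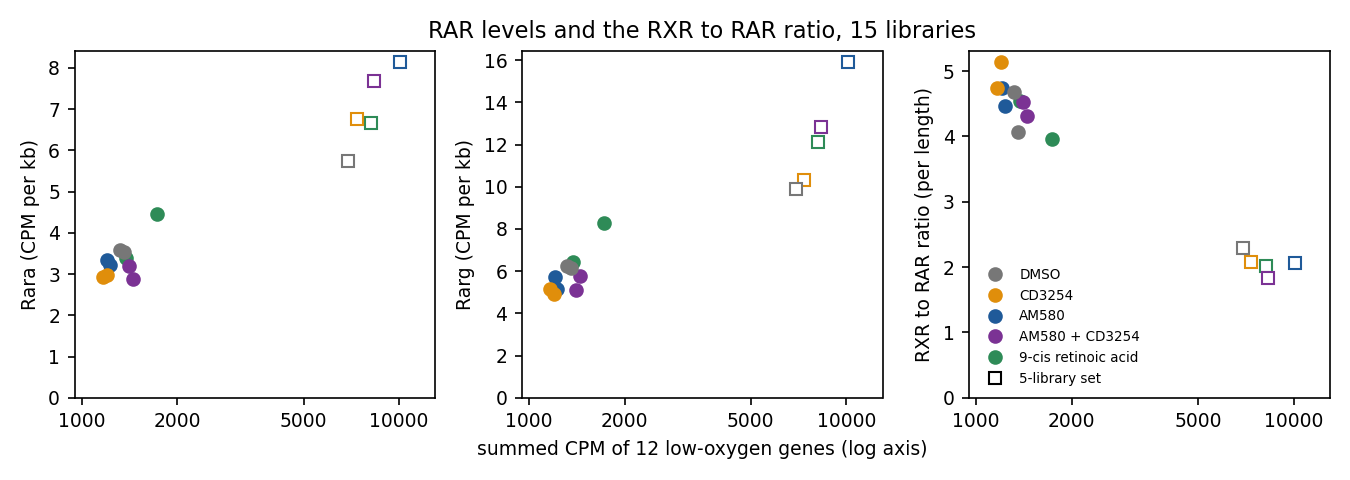
Rara level, Rarg level (both CPM per kb) and the RXR to RAR ratio per length in each library, against the summed CPM of 12 low-oxygen genes on a log axis, with colours for treatment and open squares for the 5-library set. The 5 squares, at 6922 to 10093 summed CPM, have the highest Rara and Rarg levels and ratios of 2.06 ± 0.162 against 4.52 ± 0.347 in the other 10.

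Genes around the receptors were read from lists of retinoic acid supply, binding and breakdown, of receptor cofactors and of other RXR partners. Of 16 supply and breakdown genes, 12 were tested, and 2 rose with an RAR ligand in the pooled edgeR test while 0 fell: Cyp26b1, a retinoic acid hydroxylase (log2 3.98 ± 0.61, adjusted p = 0.0499), and Dhrs3, a retinaldehyde reductase (2.55 ± 0.38, adjusted p = 0.0478). Of all genes tested, 0.0359% were called in that test. The median log2 change of the 12 was 0.16 against 0.02 for all genes. Of 17 coactivators and corepressors tested, 0 were called, with a median of 0.09, and of 11 tested RXR partners (13 listed) 0 were called, with a median of 0.10. With the library set term the counts of these 3 lists were again 2, 0 and 0, where 0.0896% of all genes were called. Of the 12 low-oxygen genes, 1 was called with the term, Car9, a carbonic anhydrase (0.65 ± 0.11, edgeR adjusted p = 0.0439).

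Cyp26b1 is set beside Rarb because it was also called with CD3254 alone once the library set term was added. Its log2 change from DMSO was then 2.99 ± 0.37 (edgeR adjusted p = 0.0105, background 0.0239%). Without that term edgeR called 0% of all genes in this comparison. Cyp26b1 held 0.659, 0.211 and 0.0503 CPM in DMSO and 4.67, 1.43 and 1.13 with CD3254. The lowest DMSO value, in replicate 3, lay below the limit of 3 reads in that library, 0.0754 CPM. The gene held 6.90, 2.16 and 2.45 CPM with AM580, and 127, 53.3 and 35.5 CPM in the joint libraries. The joint treatment minus AM580 was 4.25 ± 0.29 for Cyp26b1 with the library set term (edgeR adjusted p = 1.4e-05, background 0.012%). The same difference for Rarb was 0.66 ± 0.38 (adjusted p = 0.608). Here too, edgeR called 0% of all genes without the term. The difference between the 2 genes was not tested. Cyp26a1, which has a DR5 in its window, stayed at 0 to 0.174 CPM.

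The genes whose pattern was most like that of each receptor were ranked by Pearson's correlation of log2 CPM over the 15 libraries after subtraction of the library set means. For Rarb they were Dhrs3 (0.954), Enpp1 (0.919) and Itga2 (0.901), for Rara Ctdnep1 (0.918), Ppp1r13l (0.918) and Traf3ip2 (0.917), and for Rarg Fbxl19 (0.957), Pcgf2 (0.955) and Fbxw5 (0.949). For Rxra they were Ctc1 (0.942), Myo1d (0.938) and Plxnd1 (0.935), and for Rxrb Nkiras2 (0.972) and Gorasp1 (0.972). The points share treatments and scaling factors, so these values rank genes and test nothing. Dhrs3, ranked by its likeness to Rarb in these same libraries, held 2.60 to 10.8 CPM in the 6 libraries without an RAR ligand. In the 9 with one it held 14.6 to 54.1 CPM, without overlap, a split that such a ranking favours.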

How the data were processed

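RNA from 15 libraries of 1 cell line was sequenced, and the authors deposited raw read counts per Ensembl gene. The submitters' processing notes name HISAT2 2.2.1, HTSeq, SAMtools 1.18 and FastQC, and the mm10 build. For strand setting and annotation release the sources used here name nothing. The 5 rows without a gene held 63.0% of reads in the shallowest library (9-cis retinoic acid, replicate 3) and 18.1% to 28.5% in the others, and stayed out of library sizes and tests.

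Counts were tested with edgeR 4.0.16 in R 4.3.3 (filterByExpr, 16736 genes, TMM, robust quasi-likelihood, all libraries in 1 model), two-sided, with Benjamini-Hochberg adjustment over all genes per comparison and a threshold of 0.05. The residual degrees of freedom were 10, or 9 with the library set term, which was read from the same counts. SEs derive from the F statistic. DESeq2 1.42.0 was an alternative, beside other scaling, no filter, a replicate block, the 10-library set alone and leaving out each library. Of the identifiers, 42462 had a symbol. Lengths and coordinates are from GENCODE M21 and may differ from the release counted. Permutation tests used SciPy 1.17.1, with a pseudocount of 0.1 CPM, or 0.01 CPM per kb for the order of levels. The scripts were tested on simulated data. By rule, named genes were the receptors, list members called, genes overlapping a receptor, and the 3 genes most like each receptor, of which 1 is not reported here. Ctrb1, Amy2a5, Ins1, Ins2 and Cyp26a1 fall outside it and were chosen after their values were seen. The members and lists were chosen with earlier results of these data known. Whether replicate numbers in the labels pair samples was not settled. Deviations of same-numbered libraries correlated from -0.681 to 0.815, and those of replicate 3 from 0.044 to 0.588. Such a range cannot exclude pairing, since replicate 1 lay in the smaller library set in every treatment but the joint one.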

Additional observations from a re-analysis of the deposited data

How the results depend on the processing

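The pooled rise of Rarb kept its direction and its call in 37 other settings (log2 2.68 to 3.22), and its level difference by permutation over 20 settings was 1.38 to 2.77 (exact permutation p from 0.0002 to 0.00476). The order of levels held in the 19 alternatives run. The 5-library set alone, where Rxra was above Rarg in 2 of 5 libraries, was not among them. The count of receptor genes called in single comparisons moved from 0 to 1, Rarb each time. It was 1 for AM580 minus DMSO and AM580 minus CD3254 in the 10-library set alone and by DESeq2 with or without the library set term. It was 1 for the joint treatment and 9-cis retinoic acid, each minus DMSO or CD3254, in these settings and with the term in edgeR, and for the joint treatment minus DMSO also without a filter on low counts. With each library left out in turn these 6 counts ran from 0 to 1. The causes were not tested, except that leaving out libraries leaves fewer samples. The change of Rarb with CD3254 reversed to -0.65 in the 10-library set, and ran from -0.53 to 0.53 with a library left out, below 0 without replicate 1 of DMSO or of CD3254. Of 9-cis retinoic acid minus the joint treatment, the leave-one-out range was -0.43 to 0.081, reversed only without replicate 2 of 9-cis retinoic acid, and the pooled Rara value ran from -0.038 to 0.42, below 0 without replicate 1 of AM580 or replicate 2 of the joint treatment. With the replicate block, Rarb was 2.83 pooled (adjusted p = 0.00669, edgeR) and 3.17 in the joint treatment minus DMSO (adjusted p = 0.0535), and the block changed no receptor call. DESeq2's pooled adjusted p was 2.3e-16. Depth limits Rarb, at 8 to 16 reads in DMSO, and Rxrg.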
